A study of Mus musculus with 2 samples.

Results

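Rab GTPases, the small GTP-binding proteins that direct vesicle traffic, were read on 2 two-colour arrays that compared Bcl11b-deficient with wild-type CD8+ T cells. The genes were taken by name: each gene spot whose array name begins with Rab and a number, plus the clone name of Rab7b. This gave 67 names, of which 57 are Rab GTPases and 10 are partner proteins named after a Rab. Of the 57 GTPases, 37 could be tested, or 64.9%, among 9941 genes tested on the arrays in all. A gene was tested where at least 1 channel of a probe was well above background on both arrays, and its brightest such probe stood for it. Rab42 and Rab44 are on the array under clone names, lie outside the naming rule and were not tested.

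The cells were CD8+ T cells isolated by negative selection, over 90% pure per the labels, at day 6 after infection of mice with Listeria monocytogenes that expresses ovalbumin. The Bcl11b-deficient cells were taken from animals of the genotype Bcl11bF/F/dLck-iCre, whose floxed Bcl11b alleles are removed in T cells by Cre under the distal Lck promoter, and the others from wild-type mice. Each of the 2 arrays held 1 biological replicate, with Bcl11b-deficient RNA in Cy5 (red) and wild-type RNA in Cy3 (green). The dyes were not exchanged on either array, so a dye effect on a gene and an effect of genotype cannot be told apart.

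A Rab switches between a GDP-bound form in the cytosol and a GTP-bound form on a membrane, where it recruits effectors that move, tether or fuse vesicles. Exchange factors load GTP and so turn a Rab on, GTPase-activating proteins turn it off, and prenyl groups anchor it in the membrane. In cytotoxic T cells, Rab27a and its effector Unc13d (Munc13-4) are needed for the release of lytic granules, and Rab11 and Rab4 compartments recycle receptors to the surface.

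Promoter sequence was at hand, from RefSeq on build GRCm38.p6, for 47 of the 57 Rab GTPase genes, as the 250 bases before each annotated start. Among the genes called different, windows are shown for Rab32, the only gene called higher that has one, and for both starts of Rab27a, the granule Rab. Capitals mark matches to 4 short motifs that were searched on both strands: the E-box CACGTG, a PU.1-type site GAGGAAGT, an ETS-type site CCGGAAGT and a RUNX-type site TGTGGTT. The PU.1-type and ETS-type motifs share their last 6 letters.
Rab32, chr10:10558208-10558457, minus strand: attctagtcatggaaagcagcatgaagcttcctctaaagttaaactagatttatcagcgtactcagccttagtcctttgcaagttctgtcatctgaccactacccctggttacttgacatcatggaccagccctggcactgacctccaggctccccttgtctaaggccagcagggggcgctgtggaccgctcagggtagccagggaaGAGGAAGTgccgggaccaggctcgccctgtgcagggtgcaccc
Rab27a first start, chr9:73044560-73044809, plus strand: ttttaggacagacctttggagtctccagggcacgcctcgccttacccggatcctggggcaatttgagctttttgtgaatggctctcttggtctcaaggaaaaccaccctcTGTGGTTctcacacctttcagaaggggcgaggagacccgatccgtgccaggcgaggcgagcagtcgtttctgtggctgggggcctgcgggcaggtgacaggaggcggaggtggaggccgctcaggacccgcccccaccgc
Rab27a second start, chr9:73063898-73064147, plus strand: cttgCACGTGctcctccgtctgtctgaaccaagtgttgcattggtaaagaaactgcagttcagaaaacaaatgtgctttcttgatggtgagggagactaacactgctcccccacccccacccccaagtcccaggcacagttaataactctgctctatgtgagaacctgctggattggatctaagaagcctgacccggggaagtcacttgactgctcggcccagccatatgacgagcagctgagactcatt
The Rab32 window holds 1 GAGGAAGT, which occurs in 2.44% of all 32851 promoter windows and in 2 of 59 Rab windows, those of Rab32 and Rab2b. The first Rab27a window holds 1 TGTGGTT, found in 4.40% of all windows and in 2 Rab windows, and the second holds 1 CACGTG, found in 6.02% of all windows and in 5 Rab windows. CCGGAAGT was found in 2.88% of all windows and in 2 Rab windows, those of Rab11a and Rab24. One of the 2 Rab23 windows holds CACGTG, and none of the 4 motifs was found in the windows of Rab6b and Rab12. The Rab windows had a median GC content of 60.4%, against 52.4% over all windows. A match is a run of letters and not a measured binding site.

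Ratios are Bcl11b-deficient over wild type on the log2 scale, after background correction and loess normalization within each array. Intensities are normalized spot brightness in each channel, and are compared between groups for 1 probe and not between probes. Adjusted p-values are limma's, with Benjamini-Hochberg adjustment over all 9941 genes, and a gene was called at an adjusted p under 0.05. The fit gave each gene the same standard error of 0.42, so a call required a mean log2 ratio of at least 1.18 in size. A p-value therefore depends on the mean log2 ratio and on a spread between the 2 arrays that is pooled over all genes. The SD printed beside some p-values is the gene's own and did not enter the test.

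Across the arrays, deficient RNA was well above background at 26.0% and 31.1% of gene spots and wild-type RNA at 32.4% and 28.9%. Bcl11b itself (NM_021399) had an intensity of 1927 and 558.9 in deficient cells, against 3105 and 4323 in wild-type cells, and was lower by 1.82 ± 1.60 on the log2 scale (SD, n = 2 arrays, limma adjusted p = 6.56e-04). Its log2 ratio was -0.69 on replicate 1 and -2.95 on replicate 2. Negative control spots had a median raw signal of 968.4 and 706.9 in the deficient channel and 326.5 and 406.1 in the wild-type channel. The ratios of all genes tested had an SD of 0.961 on replicate 1 and 0.647 on replicate 2, with medians of -0.22 and -0.01.

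Rab7b and Rab32 were called higher in deficient cells, and Rab6b, Rab12, Rab23 and Rab27a were called lower. For Rab6b, Rab23 and Rab27a deficient signal was above background on neither array, so their calls rest on wild-type signal alone and are no measured difference. No other Rab GTPase was called, which leaves 31 of 37 uncalled. An unadjusted limma p under 0.05 was found for 7 of the 37 Rabs and for 2176 of the 9941 genes tested. Over all genes tested, limma called 9.61% in either direction, with 3.65% higher and 5.96% lower. The 2 higher Rabs are 5.41% of the 37 and the 4 lower ones 10.8%. A further point is the filter: 4 members had wild-type RNA alone above background, Rab6b, Rab23, Rab27a and Rab3a, and entered the test through that channel alone. For all 4, raw deficient signal was the brighter on both arrays, and wild-type signal was the brighter only after background correction and normalization. On both arrays at once, 2 Rabs were more than 2-fold higher (Rab7b and Rab32) and 2 more than 2-fold lower (Rab6b and Rab27a), against 2.59% and 1.87% of all genes tested. The counts of lower Rabs therefore describe these probes and are no support for a shift of the family.

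By the mean of both arrays, the family's median lay close to that of all genes tested, at -0.14 against -0.12. On single arrays the median log2 ratio of the 37 Rabs was -0.43 on replicate 1 and 0.08 on replicate 2, against -0.22 and -0.01 over all genes tested. On replicate 1, 26 of the 37 were below 0, and on replicate 2, 15 were, against 5818 and 5017 of the 9941 genes tested. The sign was the same on both arrays for 20 of the 37, or 54.1%, against 74.0% of all genes tested. The mean log2 ratio was between -0.50 and 0.50 for 24 of the 37.

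**Figure D1:**
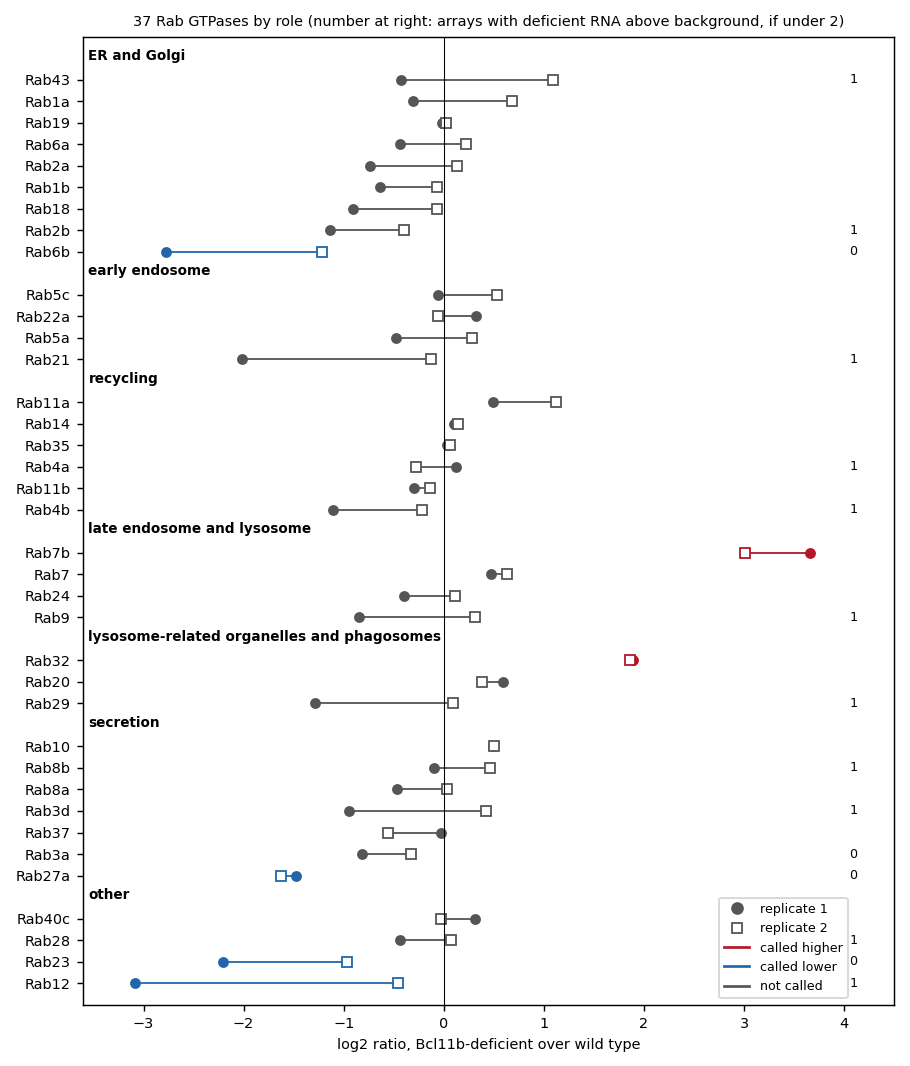
Log2 ratio (x axis, deficient over wild type) of each of the 37 Rab GTPases tested, grouped by role, with filled circles for replicate 1, open squares for replicate 2 and a line between them. Red marks the 2 Rabs called higher, blue the 4 called lower and grey the 31 not called, and the number at the right is given where deficient RNA was above background on fewer than 2 arrays. Replicate 1 lies left of replicate 2 for 29 of the 37.

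The Rabs differed in how well the deficient channel was measured. Deficient RNA was above background on both arrays for 22 of the 37, on 1 array for 11 and on neither for 4. Of the 11, 10 were measured on replicate 2 alone, as were 2326 of the 2422 genes tested with deficient RNA above background on 1 array. For these 11 Rabs, the median log2 ratio was -0.95 on replicate 1 and 0.08 on replicate 2. For the 2422 genes it was -1.11 on replicate 1 and -0.18 on replicate 2. Both sets were chosen by deficient signal that was not above background on 1 array, mostly replicate 1. Lower ratios on replicate 1 follow from that choice and are no separate result. The 5733 genes above background in both groups on both arrays had medians of 0.04 on replicate 1 and 0.05 on replicate 2.

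The 22 Rabs above background in both groups on both arrays had a median of 0.09 and ran from -0.49 for Rab18 to 3.33 for Rab7b. Of these 22, 2 were called higher and 0 lower by limma, and the 2 called were also the only ones with an unadjusted p under 0.05. Among the 5733 genes measured this fully, 5.53% were called higher and 1.33% lower, and 829 had an unadjusted limma p under 0.05. All 4 Rabs called lower thus lie outside the fully measured set.

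**Figure D2:**
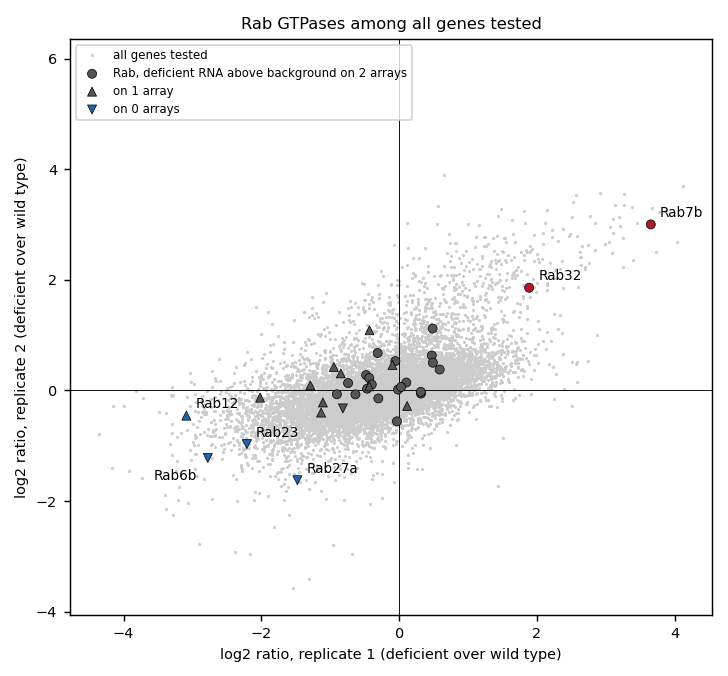
Log2 ratio on replicate 1 (x axis) against replicate 2 (y axis), deficient over wild type, for all 9941 genes tested (grey points) and the 37 Rab GTPases (larger symbols). Circles are Rabs with deficient RNA above background on 2 arrays, upward triangles on 1 array and downward triangles on 0 arrays. Rab7b and Rab32 lie at the upper right on both arrays, while Rab12, Rab6b and Rab23 lie further below 0 on replicate 1 than on replicate 2.

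Among the Rabs of late endosomes and lysosomes, Rab7b stood out. Rab7b, which acts in late endosome to Golgi traffic and is known from monocytes and macrophages, had an intensity of 12570 and 11440 in deficient cells, against 999 and 1426 in wild-type cells. The deficient values lay far above the wild-type values on both arrays, and the groups did not overlap. Its log2 ratios were 3.65 and 3.0, a mean of 3.33 ± 0.46 (SD, n = 2 arrays), with a limma adjusted p of 2.8e-12. By its mean ratio Rab7b ranked 7 of 9941 genes, at rank 6 on replicate 1 and rank 30 on replicate 2. The only Rab7b probe (NM_145509) lies at chr1:133540234-133540293 on build mm8, which the array files use.

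Rab7, the core late endosome Rab that drives fusion with lysosomes, had 1084 and 1163 in deficient cells and 780.3 and 749.9 in wild-type cells. The deficient values lay above the wild-type values on both arrays, but the log2 ratios of 0.47 and 0.63 did not pass (mean 0.55, 95% interval -0.27 to 1.37, limma adjusted p = 0.458). A second Rab7 probe read -1.13 and 0.50. Rab24, linked to autophagy, had log2 ratios of -0.40 and 0.11, and Rab9, which returns receptors from late endosomes to the Golgi, -0.85 and 0.31. Of the 5 Rabs of this role 4 were tested, and Rab9 had the lowest mean of the 4 at -0.27. Rab9b was not above background in any channel of either array.

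Rab32 was the higher member among the Rabs of lysosome-related organelles and phagosomes. Rab32, which takes part in the biogenesis of lysosome-related organelles and is recruited to phagosomes and bacterial vacuoles, had 3356 and 2754 in deficient cells, against 906.7 and 759.2 in wild-type cells. Both deficient values were above both wild-type values, and the 2 arrays gave nearly the same ratio. Its log2 ratios of 1.89 and 1.86 average 1.87 ± 0.02 (SD, n = 2 arrays), a 3.66-fold difference with a limma adjusted p of 4.06e-04. The probe (NM_026405) lies at chr10:10235526-10235585 on build mm8 and ranked 128 of 9941 genes by its mean.

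Rab20, a Rab of phagosome maturation, had 754.6 and 635.5 in deficient cells and 501.8 and 488.7 in wild-type cells. The groups did not overlap, yet the log2 ratios of 0.59 and 0.38 did not pass (mean 0.48, 95% interval -0.34 to 1.30, limma adjusted p = 0.518). Rab29, the near relative of Rab32 that acts at the Golgi and lysosomes, had -1.29 and 0.09, the lowest mean of the role at -0.60, and its deficient signal was above background on replicate 2 alone. Rab38, the closest relative of Rab32, was not above background in any channel, nor were Rab39 and Rab39b. The Rab7b and Rab29 probes lie 160 kb apart on chromosome 1, with mean log2 ratios of 3.33 and -0.60.

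Markers of other cells moved with Rab7b and Rab32. Of 29 macrophage and monocyte markers on the array, 23 were tested and all 23 were higher in deficient cells, with a median log2 ratio of 2.36. Their summed intensity was 366000 and 344000 in deficient cells, against 60300 and 44300 in wild-type cells. Among these markers, Adgre1, a surface receptor of macrophages, had log2 ratios of 3.38 and 3.32, while Itgam, Trem2, Ccr2 and Msr1 were above background in neither group. Of 11 B cell markers tested, 7 were higher, with summed intensities of 101000 and 162000 in deficient cells and 38700 and 23800 in wild-type cells, and of 9 neutrophil markers tested, 4 were higher, with a median of 1.12. Of 5 dendritic cell markers tested 4 were higher (median 2.0), of 5 erythroid markers 4 (median 1.40), of 5 NK cell markers 3, with 1 lower (median 2.38), and of 3 platelet markers 1 (median 0.57). The part of these cells in the Rab7b and Rab32 values was not tested. In RNA of a whole sample, more cells of a type and more RNA per cell cannot be told apart.

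**Figure D3:**
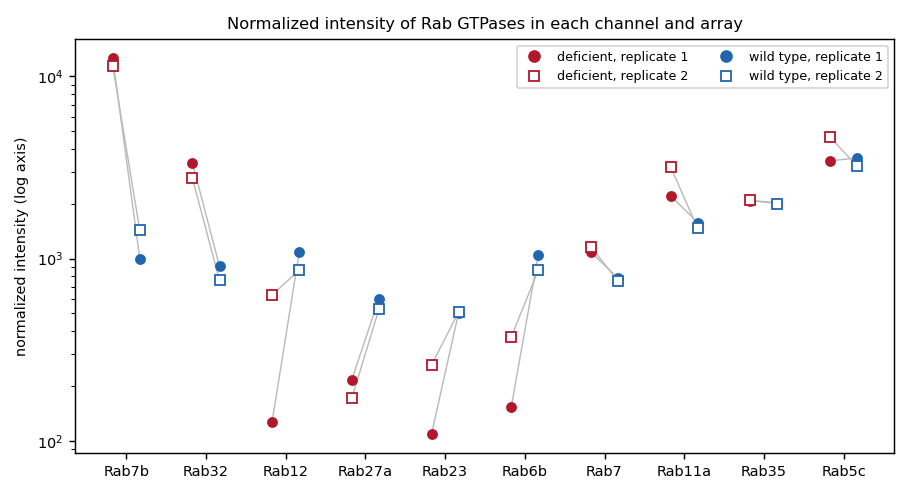
Normalized intensity (y axis, log scale) of 10 Rab GTPases in each channel, with deficient cells in red at the left and wild-type cells in blue at the right of each pair, filled circles for replicate 1 and open squares for replicate 2, joined within an array. The 6 called Rabs come first: Rab7b and Rab32 are above wild type on both arrays, and Rab12, Rab27a, Rab23 and Rab6b are below it. The last 4, Rab7, Rab11a, Rab35 and Rab5c, were not called.

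Among the Rabs of secretion, Rab27a was called lower. Rab27a, which docks lytic granules at the plasma membrane, had 216.3 and 171.3 in deficient cells, against 602.4 and 528 in wild-type cells. Neither array measured it above background in deficient cells, and it entered the test through its wild-type signal alone. The fitted log2 ratios of -1.48 and -1.62 (limma adjusted p = 5.39e-03) therefore give no measured size. Set against a floor level, wild-type signal was 2.08-fold higher. On each array the floor is the lowest deficient signal that counts as above background (274 and 269) or the probe's own deficient signal, whichever is higher. Some brighter deficient signals were still not above background, such as 484 for Rab8b on replicate 1 and 406.3 for Rab4a on replicate 2. A fold over the floor is therefore no firm lower limit. The raw deficient signal was 997 and 657, close to the negative controls of that channel at 968.4 and 706.9, and above the raw wild-type signal of 575 and 634. The probe (NM_023635) lies at chr9:72893993-72894052 on build mm8, and a second Rab27a probe was not above background in either group.

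Markers of CD8 T cells moved in the direction in which Rab27a was called. Of 14 such markers, all tested, 6 were lower and 0 higher, with a median log2 ratio of -1.14, and their summed intensity was 117000 and 86000 in deficient cells against 196000 and 227000 in wild-type cells. The part of this shift in the Rab27a value was not tested. Unc13d, the Munc13-4 effector with which Rab27a acts in granule release, had log2 ratios of -0.15 and 0.19 (limma adjusted p = 0.985).

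The other Rabs of secretion were not called. Rab10, which acts in the delivery of vesicles to the plasma membrane, had log2 ratios of 0.49 and 0.50, the highest mean of the role at 0.50 (95% interval -0.32 to 1.32), although its 1254 and 1195 in deficient cells did not overlap the 893.4 and 843.3 in wild-type cells. Further Rab10 probes read -0.78 and 0.37, and -1.22 and 0.57, on replicates 1 and 2. Rab8a and Rab8b, relatives of Rab10 in exocytosis, had ratios of -0.46 and 0.03, and of -0.10 and 0.46. These ratios sit on both sides of 0, and a second Rab8a probe read -3.08 and -0.06.

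Rab37, found on secretory granules, had log2 ratios of -0.03 and -0.56 with its brightest probe. A second Rab37 probe, not above background in deficient cells, read -2.38 and -1.19, so the probes of this gene differ in size. Rab3d, a Rab of regulated exocytosis, had -0.95 and 0.43. Its relative Rab3a, best known from synaptic vesicles, had 308.7 and 388.9 in deficient cells, not above background, against 543.7 and 487 in wild-type cells, and was not called (limma adjusted p = 0.444). Rab3b, Rab3c, Rab13, Rab26 and Rab27b were above background nowhere.

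Among the Rabs of the endoplasmic reticulum and Golgi, Rab6b was called lower and the other 8 tested were not called. Rab6b, a relative of the Golgi Rab6a that is best known from neurons, had 153.3 and 371.4 in deficient cells, against 1052 and 866.2 in wild-type cells. Its deficient signal was not above background on either array, and it too entered the test through its wild-type signal alone. The fitted log2 ratios of -2.78 and -1.22 (limma adjusted p = 1.31e-04) give no measured size. Wild-type signal was 2.99-fold over the floor defined for Rab27a, which is no firm lower limit. The raw deficient signal was 899 and 948 and the raw wild-type signal 858 and 944, so the 2 channels had close to equal raw brightness before background correction and normalization. The probe (NM_173781) lies at chr9:103043359-103043418 on build mm8.

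Rab6a, the widely expressed relative of Rab6b, had 1014 and 1397 in deficient cells and 1369 and 1195 in wild-type cells, so the groups overlapped, and a second Rab6a probe read 0.70 and 0.60. Rab1a and Rab1b, which carry cargo from the endoplasmic reticulum to the Golgi, had log2 ratios of -0.31 and 0.68, and of -0.63 and -0.07. A second Rab1b probe, above background in both groups on both arrays, read 0.59 and 0.27, of the opposite sign, and the mean of the Rab1b probes was 0.04. The 9 tested of 14 Rabs of this role had a median of -0.30, and all 9 were below 0 on replicate 1 while 4 were on replicate 2. Over all 9941 genes tested, 5818 were below 0 on replicate 1 and 5017 on replicate 2. Deficient signal of Rab43, Rab2b and Rab6b was not above background on replicate 1. Rab43, a Golgi Rab, had the highest mean of the role at 0.33. With its brightest probe the ratios were -0.43 and 1.09, the widest disagreement in sign among the Rabs tested. Other Rab43 probes read -0.70 and 1.46, 0.45 and 0.335, and 0.37 and 0.85. Rab19 had the closest ratios of the role, with 2539 and 2397 in deficient cells and 2567 and 2370 in wild-type cells.

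Rab2a and Rab2b, which act between the Golgi and the endoplasmic reticulum, had log2 ratios of -0.74 and 0.13, and of -1.13 and -0.40, and a second Rab2a probe read -2.19 and 0.03. Rab18, a Rab of the endoplasmic reticulum and lipid droplets, had 1314 and 2082 in deficient cells and 2458 and 2183 in wild-type cells, a mean ratio of -0.49 that did not pass (limma adjusted p = 0.516), and its second probe read -1.77 and -0.50. Rab33a, Rab33b, Rab34 and Rab36 were above background nowhere, and Rab30 on too few spots to be tested. Whether a probe of a Rab also reads a close relative was not tested.

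No early endosome or recycling Rab was called. Rab5a and Rab5c, which drive the fusion of early endosomes, had log2 ratios of -0.48 and 0.28, and of -0.05 and 0.53, and Rab5b was above background nowhere. For Rab5c the deficient intensities of 3435 and 4639 overlapped the wild-type range of 3568 and 3209. Rab22a, which sorts cargo from early endosomes, had 0.32 and -0.06. Rab21, a Rab of integrin traffic, had the lowest mean of the early endosome Rabs at -1.07 and was the uncalled Rab furthest from 0, with 270.5 and 766.3 in deficient cells against 1097 and 838.3 in wild-type cells (limma adjusted p = 0.0849). Its 2 ratios were -2.02 and -0.13, so its mean rests on replicate 1, where its deficient signal was not above background. Of the 4 early endosome Rabs tested of 6, Rab21 alone had an unadjusted limma p under 0.05. Rab31 was above background on too few spots to be tested.

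Among the 6 recycling Rabs tested of 9, 0 had an unadjusted limma p under 0.05, against 2176 of all 9941 genes tested. The median of the 6 was -0.02. Rab11a, the main Rab of recycling endosomes, had 2208 and 3181 in deficient cells, against 1576 and 1463 in wild-type cells. Its groups did not overlap, but the log2 ratios of 0.49 and 1.12 did not pass (mean 0.80, 95% interval -0.02 to 1.62, limma adjusted p = 0.239), and a second probe read -0.32 and 0.74. Its relative Rab11b had -0.30 and -0.14 with its brightest probe and 0.91 and 0.22 with another.

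Rab35 and Rab14, which act in recycling at the plasma membrane and from endosomes, were not called. Rab35 had 2071 and 2091 in deficient cells and 2030 and 2001 in wild-type cells (mean log2 ratio 0.05, 95% interval -0.77 to 0.87). Rab14 had log2 ratios of 0.10 and 0.14 with its brightest probe, and -0.14 and -0.10, and -0.99 and 0.31, with its others. Under median centring in place of loess the mean of Rab35 was -0.64 and that of Rab14 -0.40. Rab4a, a Rab of fast recycling, had 0.12 and -0.28, and its relative Rab4b had -1.11 and -0.22, the lowest mean of the role at -0.66 (limma adjusted p = 0.356). Neither Rab4 gene was called. Rab15, Rab17 and Rab25, the other recycling Rabs, were above background nowhere.

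Rab12 and Rab23, 2 of the 4 tested Rabs of other roles, were called lower. Rab12, which steers cargo from recycling endosomes to lysosomes, had 127.2 and 630.8 in deficient cells, against 1083 and 864.6 in wild-type cells. Both deficient values were below both wild-type values, but the 2 arrays differed widely, at -3.09 and -0.46 (mean -1.77 ± 1.86, SD, n = 2 arrays, limma adjusted p = 0.00100). Deficient signal was above background on replicate 2 alone, where the difference is the small one. Raw signals were 859 and 1340 in deficient cells, the first of them under the negative control median of 968.4, and 885 and 1010 in wild-type cells. The probe (NM_024448) lies at chr17:66400247-66400306 on build mm8.

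Rab23, a regulator of Hedgehog signalling at the cilium, had 109 and 260.4 in deficient cells, not above background on either array, against 504.6 and 510.1 in wild-type cells. Wild-type signal was 1.87-fold over the floor defined for Rab27a, which is no firm lower limit. The fitted log2 ratios of -2.21 and -0.97 (limma adjusted p = 0.00404) give no measured size. Raw signals were 805 and 779 in deficient cells and 526 and 619 in wild-type cells, so before correction and normalization the deficient channel was the brighter on both arrays. The probe (NM_008999) lies at chr1:33685160-33685219 on build mm8. The other probes of Rab12 and Rab23 were above background in neither group. Rab40c, part of a ubiquitin ligase, had the highest mean of these roles, with ratios of 0.31 and -0.03, and Rab28, a Rab of the cilium, had -0.43 and 0.07. Rab40b was above background nowhere.

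**Figure D4:**
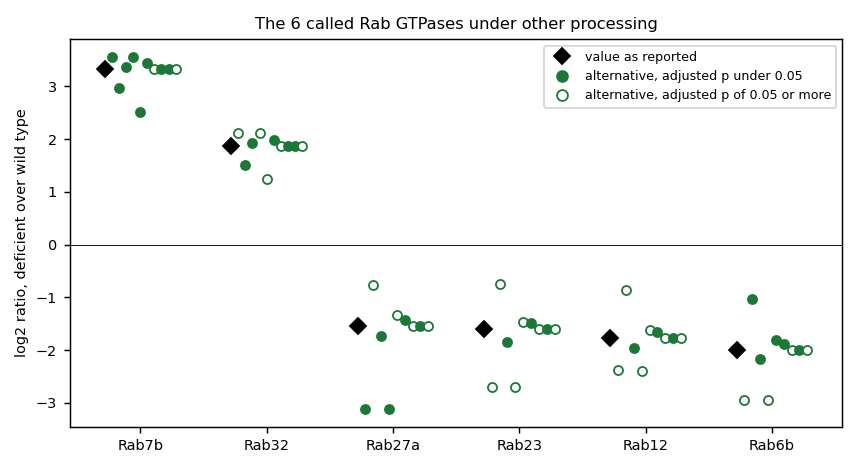
Mean log2 ratio (y axis, deficient over wild type) of the 6 called Rab GTPases as reported (black diamonds) and under the other processing settings (green circles, filled where the limma adjusted p was under 0.05). Rab7b stays between 2.51 and 3.55, Rab32 between 1.24 and 2.11, and no value of the 6 crosses 0.

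The call of Rab7b held under 8 of 10 other settings and that of Rab32 under 5 of 10. Rab6b and Rab27a were called under 5 of 9 settings, and Rab12 and Rab23 under 3 of 9, since these 4 drop out where both channels must be above background. With the log2 ratios of the scanner program in place of normexp and loess, the mean of Rab27a was -3.12 and it was the only lower Rab still called, as Rab7b was the only higher one. Without background correction Rab27a had a mean of -0.77, Rab23 of -0.74, Rab12 of -0.85 and Rab6b of -1.03, and Rab6b alone of the 4 was called.

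The partner proteins named after a Rab gave 2 lower calls among 7 tested of 10, against 5.96% of all genes called lower. For both, Rab3ip and Rab3gap1, deficient signal was above background on 1 array alone. Rab3ip (Rabin8), the exchange factor of Rab8, had 183.1 and 548.4 in deficient cells, against 1715 and 1333 in wild-type cells. Its deficient values were below the wild-type values on both arrays, with log2 ratios of -3.23 and -1.28 (mean -2.25 ± 1.38, SD, n = 2 arrays, limma adjusted p = 9.16e-06). Rab3gap1, a GTPase-activating subunit for Rab3 that also acts on Rab18, was lower as well, at -2.29 and -0.59 (mean -1.44 ± 1.20, adjusted p = 0.0112). Rab3gap2, its partner subunit, had -0.20 and 0.10, and Rab11fip1 and Rab11fip3, effectors of Rab11, had -1.11 and 0.21, and -0.05 and 0.12.

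Of 32 exchange factors on the array, 22 were tested, 4 were lower and 0 higher by limma, against 5.96% and 3.65% of all genes. An unadjusted limma p under 0.05 was found for 5 of the 22 and for 2176 of all 9941 genes tested. Besides Rab3ip the lower ones were Dennd2d at -1.63 and -1.39 (mean -1.51 ± 0.17, adjusted p = 0.00715), Madd, which acts on Rab3 and Rab27, at -1.66 and -0.93, and Sbf1 at -2.33 and -0.20. Dennd2d was above background in deficient cells on both arrays, and its arrays gave similar ratios. Madd, Rab3ip and Sbf1 were measured there on 1 array alone, as were 2422 genes tested, of which 315 were called lower. The exchange factors had a median of -0.10, against -0.12 over all genes.

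Of 35 GTPase-activating proteins on the array, 25 were tested, 2 were lower, Rab3gap1 and Tbc1d23, and 0 were higher, with a median of 0.21. Over all genes tested, 5.96% were called lower and 3.65% higher. Tbc1d23 had log2 ratios of -2.68 and 0.23, which differ in sign, so its call rests on replicate 1. Of 7 genes of Rab prenylation and membrane extraction, 6 were tested and 0 called by limma, with 1 at an unadjusted p under 0.05: Gdi2, the GDP dissociation inhibitor, at 0.76 and 1.16 (adjusted p = 0.136). Of 48 effectors, 31 were tested, 2 were lower and 0 higher, a share close to that of all genes for the lower calls, with a median of 0.02. These were Appl2, an effector of Rab5 on endosomes, at -2.28 and -0.63 (adjusted p = 0.0103), and Fyco1, which links Rab7 vesicles to kinesin, at -1.48 and -0.96 (adjusted p = 0.0404). Deficient signal of Appl2, Fyco1 and Tbc1d23, at the probe that stands for each gene, was above background on 1 array alone. Under other settings Appl2 was called in 3 of 9 and Fyco1 in 2 of 9.

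**Figure D5:**
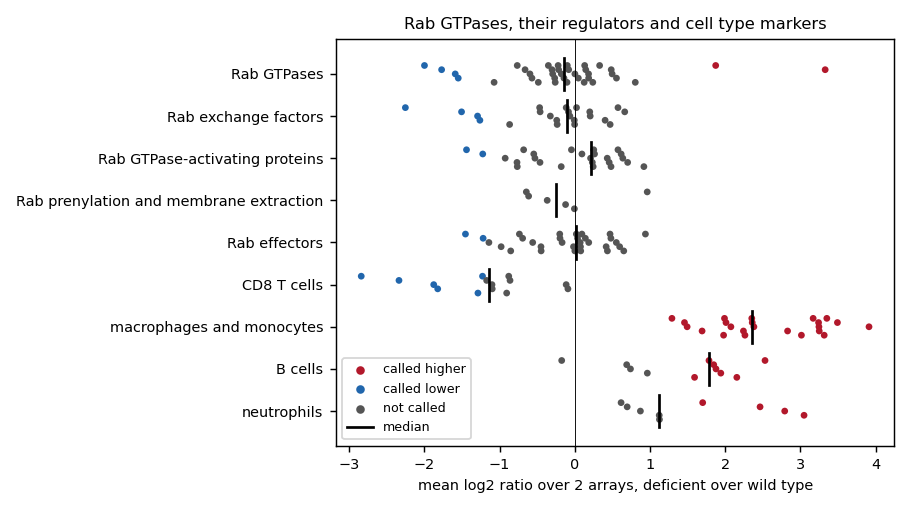
Mean log2 ratio over 2 arrays (x axis, deficient over wild type) of each tested gene of the Rab GTPases, 4 lists of their regulators and effectors and 4 lists of cell type markers, with red for genes called higher, blue for lower, grey for not called and a black bar at the median. The Rab lists have medians between -0.25 and 0.21, the CD8 T cell markers -1.14 and the macrophage and monocyte markers 2.36.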

How the data were processed

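Spot intensity values, each a mean signal beside the median of its surrounding background, were read from 2 scanner files of Agilent Feature Extraction 9.5.3.1, the version in the file headers and in the submitters' processing notes. That software also gives a red-over-green log10 ratio, corrected by its own methods per the file headers, and the deposited value table repeats this log10 ratio. Here normexp (offset 50) corrected the mean signals for background, loess then normalized the ratios of each array without weight on control spots, and 255 and 195 outlier gene spots were left out. Of 41174 gene probes, 12632 had 1 channel well above background on both arrays. These stand for 9941 genes, each by its brightest probe. Names were brought up to date with a RefSeq table of GRCm38.p6 (24375 probes by accession, 8727 by symbol, 8072 kept). A two-sided test of each log2 ratio used limma 3.58.1 in R 4.3.3, and statmod 1.5.0 served the separate-channel fit. Its prior variance came to 0.35, at infinite prior degrees of freedom, and the 95% intervals come from the common standard error. Folds over the floor use each channel after loess and Aquantile, where dye bias can enter. Simulated data were used to test the scripts. Both arrays lie on 1 slide, and their small number limits the precision.

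Called Rabs, a chosen set of Rabs of T cells and endosomes, the highest and lowest tested Rab of each role, and up to 4 called genes of each list in each direction were named. Further probes of a gene are given for some of them, chosen after their values were seen. The members and lists were chosen with earlier results of these data known. Alternatives were the scanner program's ratios, the deposited table, other background corrections and normalizations, other filters, the mean of a gene's probes, separate channels and single arrays.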

Additional observations from a re-analysis of the deposited data

How the results depend on the processing

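Limits first: 2 arrays of 1 dye orientation on 1 slide carry every value, and deficient signal near background limits the 4 lower Rabs. The normexp offset of 16, centring on the median of the tested genes and the mean of a gene's probes kept the counts of 2 higher and 4 lower Rabs. With the ratios of the scanner program, 1 Rab was higher and 1 lower, among 50 higher and 65 lower genes in all, and the deposited table gave the same 4 counts. Without background correction, 1 Rab was lower, among 186 lower genes. Median centring gave 1 higher and 1 lower Rab, among 69 higher and 350 lower genes. With both channels above background, 22 Rabs and 5836 genes were tested, which gave 0 lower Rabs and 560 higher and 220 lower genes. An unadjusted limma p under 0.05, in either direction, was found there for 3 of the 22 Rabs and 1456 of the 5836 genes. Without a filter on dim probes, 0 Rabs and 0 genes were called in either direction, with 11 Rabs and 5116 of 27595 genes at an unadjusted limma p under 0.05. Separate channels also called 0 Rabs and 0 genes in either direction, with 7 Rabs and 1983 genes at an unadjusted limma p under 0.05. Lower genes were 62.0% of all called as reported, 39.2% without background correction, 83.5% with median centring, 51.1% with genes centred on their median and 28.2% with both channels above background. Median centring put the median of all genes at -0.41 and that of the Rabs at -0.51. Of the 31 uncalled Rabs, 0 were called under any setting. Bcl11b ran from -2.54 to -1.52 and was called under 5 of 10 settings. On single arrays, which allow no test, Tbc1d23 was 0.23 without replicate 1 and -2.68 without replicate 2, against a mean of -1.23, Rab12 was -0.46 and -3.09, and Bcl11b -2.95 and -0.69. The causes were not tested. The test is already paired, because each ratio sets the 2 groups of 1 replicate against each other within an array, and no further pairing was run. The slide as a block was not run, since there is 1 slide.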
